A study of Mus musculus with 12 samples.

Results

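Helper T cells that lack Dgcr8 and were given miR-29b were compared with wild-type helper T cells given a control, which asks what still differs from wild type after 1 microRNA is returned to cells that cannot make most of their own. The comparison used 6 of the 12 arrays of the series, 3 of each group, each labelled as a separate biological replicate. All cells came from C57BL/6 mice aged 7 weeks. They were stimulated with antibodies to CD3 and CD28 for 65 h and kept in IL-2 for 48 h more, electroporated on days 1 and 4, and collected on day 5, 24 h after the second electroporation. The wild-type control cells received control inhibitors, and the DGCR8-deficient cells received miR-29b. Another group of 3 arrays, DGCR8-deficient cells from the same 3 mice given control miRNA, served as the starting point against which the approach to wild type was measured. The remaining 3 arrays, wild-type cells given miR-29 inhibitors, entered the estimate of the spread only. Genotype and the kind of control oligonucleotide (inhibitor or microRNA) cannot be told apart between these groups, and how Dgcr8 was deleted is not given in the sources used here.

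DGCR8 is the RNA-binding partner of the nuclease Drosha, and together they cut hairpins out of primary microRNA transcripts. Cells without it lose the canonical microRNAs as a class, so the messages that these microRNAs hold down in T cells can rise together. miR-29 is one family among them, known in helper T cells for restraining the transcription factors T-bet and Eomes and the cytokine interferon gamma, and in other tissues for restraining collagens and DNA methyltransferases.

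The mature sequences below, from RefSeq on GRCm38.p6, show what was returned and some of what was not. Capitals mark the seed, bases 2 to 8, by which a microRNA finds most of its targets. The first 3 are the miR-29 family, which share 1 seed.
miR-29b-3p: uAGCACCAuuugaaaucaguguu
miR-29a-3p: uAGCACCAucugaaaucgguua
miR-29c-3p: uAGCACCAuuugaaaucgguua
The next 7 are T cell microRNAs with reported targets in helper T cells, and they were not part of the treatment.
miR-17-5p: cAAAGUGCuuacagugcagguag
miR-20a-5p: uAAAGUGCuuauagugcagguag
miR-19b-3p: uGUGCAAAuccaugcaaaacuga
miR-155-5p: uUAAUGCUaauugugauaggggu
miR-146a-5p: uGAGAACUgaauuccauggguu
miR-142a-3p: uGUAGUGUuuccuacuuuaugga
let-7a-5p: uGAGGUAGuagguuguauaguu
miR-29b-3p is encoded at chr1:195037091-195037113 on the plus strand and at chr6:31063025-31063047 on the minus strand. The seed of miR-17-5p is shared by miR-20a-5p, and none of these 7 has the miR-29 seed.

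Levels are log2 signals of 1 array probe per gene, each set against its own array's 75th percentile, so that 0 is a bright probe and a step of 1 is a doubling. Levels of different genes are not comparable on this scale. A gene was called where limma's adjusted p was under 0.05 in 1 fit over 14745 genes. Between 28511 and 32218 probes were well above background on the 9 arrays, and none was saturated. Dgcr8 read -0.16, 1.0 and 0.20 on the wild-type arrays and -0.67, -1.02 and -0.35 on the miR-29b arrays, a difference of -1.03 ± 0.38 (SE). The groups did not overlap, as was so for 36.9% of all genes tested, and the gene was not called (adjusted p = 0.0754). It was called in 5 of 23 other settings, those with the authors' table, slide, scan day or the mouse as a random block (lowest adjusted p = 0.00148). Whether its probe lies in the deleted part is not known. Both arrays of Dgcr8-deficient mouse 3 stood apart in Y-linked transcripts: Eif2s3y read -8.67 and -8.31 there, against 2.08 to 2.68 on the other 7 arrays. The miR-29b array of this mouse also held 1458 outlier spots, against 68 to 145 on the other 8. The T cell markers Cd3d, Cd3e, Cd3g, Cd2, Cd4 and Thy1 were well above background on all 9 arrays, and none was called between miR-29b and wild-type cells. A lower level of a message in these bulk cultures and fewer cells that carry it cannot be told apart.

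With miR-29b, 3603 genes (24.4% of those tested) differed from wild type, 1657 higher (11.2%) and 1946 lower (13.2%). The control-treated Dgcr8-deficient cells differed from the same wild-type arrays at 3226 genes (21.9%), 1361 higher (9.23%) and 1865 lower (12.6%). Both comparisons share the wild-type arrays, so their calls are not independent. Of the called genes, 2366 were called in both, 1237 only with miR-29b and 860 only with the control. Being called in 1 and not the other is no test of a change: the direct comparison of miR-29b with control cells called 324 genes (2.2%), and 152 of them lay among the 1237 and 70 among the 860. The design allows the mouse as a block, because both treatments used cells of the same mice. With it, that comparison called 3310 genes (22.4%), 744 and 482 of them in these 2 classes. Of the 3310, 1926 (13.1% of all genes) rose and 1384 (9.39%) fell. Both arrays of a mouse also shared a slide and scan day, so mouse and slide cannot be told apart in this block. The number of genes that differed from wild type rose from 3603 to 6522 with the slide as a block, 6620 with the slide as a random block and 6256 with scan day as a block, and fell to 2248 when only the 6 arrays compared were fitted. Both groups lay together on 2 slides. Of 3599 called genes measured on both, 3598 had the sign of the fit in the difference within each slide, which uses 4 of the same 6 arrays. These genes were chosen by their calls on those arrays, so the agreement was largely fixed by that choice. It does not test for a slide effect. Without both arrays of mouse 3, 3166 genes were called.

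How near each gene came to wild type was expressed as the percent of the control cells' distance that was closed with miR-29b: 0 is a distance kept, 100 the wild-type level and a negative value a greater distance. It was given for the 2003 genes that were called and at least 1 log2 unit from wild type in the control-treated Dgcr8-deficient cells. The median was 11.3%, with quartiles of -8.40% and 32.4%, and 1609 of the 2003 genes were still called with miR-29b. The distance was closed by 80 to 120% for 43 genes and by 20 to 80% for 733, stayed between -20 and 20% for 917, and grew by more than 20% for 298. Genes that were low in the control cells had a median of 15.6% closed (1029 genes) and genes that were high had 6.2% (974 genes). Over all genes the median difference from wild type was 0.04 with miR-29b and -0.08 with control. Such an offset raises the percent closed of low genes and lowers that of high genes. Its part in the gap between these 2 medians was not tested. By mouse, the medians were 16.1%, 7.39% and 8.85% for mice 2, 3 and 4, and without the control array of mouse 3 the median was 18%. Choosing genes on their distance in the control cells favours a smaller second value. When the 2204 genes called and at least 1 log2 unit from wild type with miR-29b were taken instead, 32.0% were nearer than in the control cells, against 66.0% of the first set and 46.4% of all genes. The typical interval of a single gene was wide, with a median width of 87.4 percentage points, so that most single values between -20 and 20% cannot be told from a moderate approach or retreat.

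**Figure D1:**
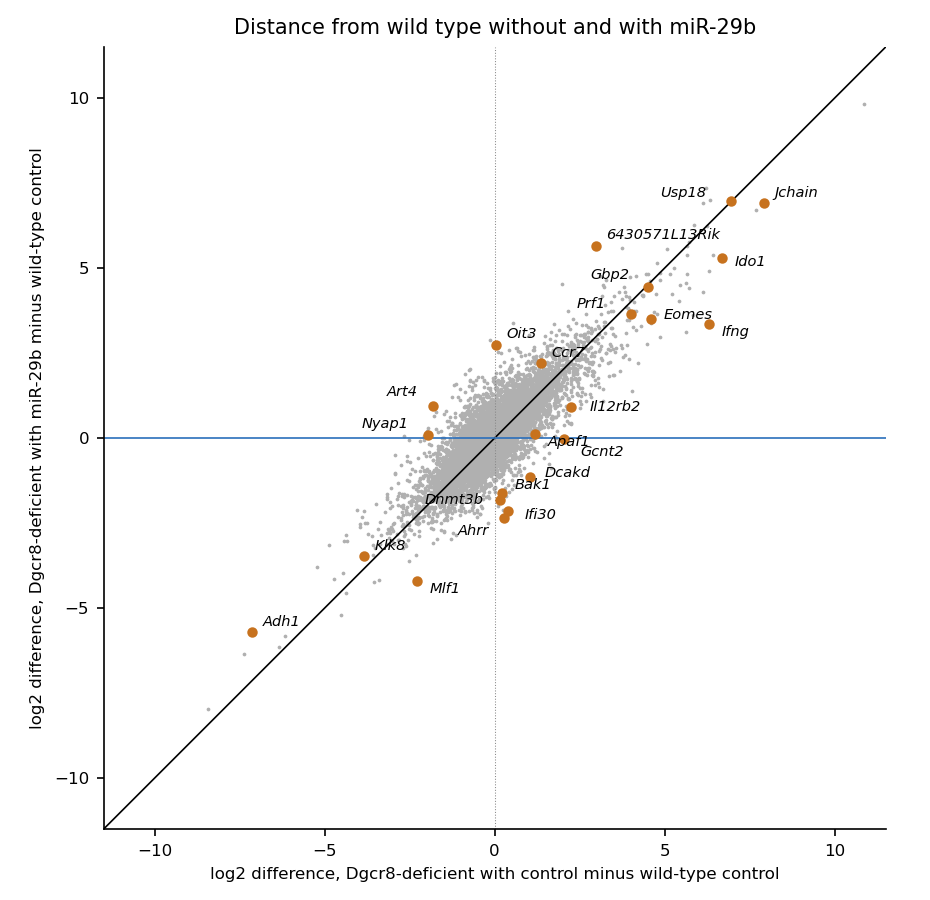
Each point is 1 of the genes tested, by its log2 difference from wild-type control in Dgcr8-deficient cells with control (horizontal) and with miR-29b (vertical). On the diagonal the distance was kept and on the blue line the wild-type level was reached: Usp18 and Gbp2 lie on the diagonal, Ifng and Eomes between both lines, Apaf1 and Gcnt2 on the blue line, and Dnmt3b, Bak1 and Ahrr below it at almost no control distance. Both axes use the same wild-type arrays, which spreads points along the diagonal.

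Interferon gamma, the defining Th1 cytokine, came part of the way back. Ifng read -2.27, -2.87 and -2.67 on the wild-type arrays, 4.59, 3.97 and 2.54 with control and 1.11, 1.39 and -0.21 with miR-29b. The 3 groups did not overlap, and the miR-29b arrays lay between the others. The control and wild-type groups were apart in the same way for 36.8% of all genes. Ifng remained 10.3-fold above wild type (log2 difference 3.36 ± 0.53, adjusted p = 0.00123), against 79.0-fold in the control cells, and 46.6% of the log2 distance was closed (95% interval 30.1 to 62.9%). Its change between treatments was -2.94 (adjusted p = 0.0214). A second, dimmer Ifng probe gave 3.40 with miR-29b and 6.44 with control.

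Eomes, a T-box factor of cytotoxic and memory T cells, read -4.18, -4.68 and -4.60 in wild-type cells, -0.13, 0.47 and 0.02 with control and -1.05, -0.88 and -1.05 with miR-29b. The miR-29b arrays were below every control array yet far above every wild-type array, 11.2-fold on average (3.49 ± 0.22, adjusted p = 8.97e-06), with 24.2% of the distance closed (14.5 to 33.3%). Il12rb2, the inducible chain of the IL-12 receptor, closed 59.0% (36.1 to 83.2%): it read -0.90, -1.04 and -0.98 in wild-type cells, 1.27, 1.37 and 1.15 with control, and -0.52, 0.60 and -0.25 with miR-29b. Its remaining difference of 0.92 ± 0.26 was called (adjusted p = 0.0279) but lost the call in 8 of 23 other settings, the mouse as a random block and the omission of mouse 3 among them. Tbx21, which encodes T-bet, read 3.67, 2.29 and 3.93 in wild-type cells, 4.85, 5.06 and 3.83 with control and 3.45, 4.52 and 2.83 with miR-29b. These groups overlapped, and neither distance was called (adjusted p = 0.778 with miR-29b and 0.165 with control). The Tbx21 change between treatments, -0.98, had an adjusted p of 0.0126 in the fit with a mouse block and 0.531 in the fit without. The difference from wild type, 0.30 ± 0.60, turned to -0.16 without mouse 3.

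Prf1, which encodes the pore-forming protein of cytotoxic granules, had no called change between treatments (-0.35, adjusted p = 0.851, and 0.170 with the mouse as a block). It read -4.08, -3.80 and -3.87 in wild-type cells, -0.46, 1.08 and -0.34 with control and -0.98, 0.76 and -0.56 with miR-29b. The control and miR-29b arrays overlapped each other. The miR-29b arrays lay 12.6-fold above wild type (3.65 ± 0.48, adjusted p = 0.000451), with 8.8% closed (-21.0 to 32.4%). That interval also holds the percent closed of Eomes, so a moderate approach cannot be told from none.

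**Figure D2:**
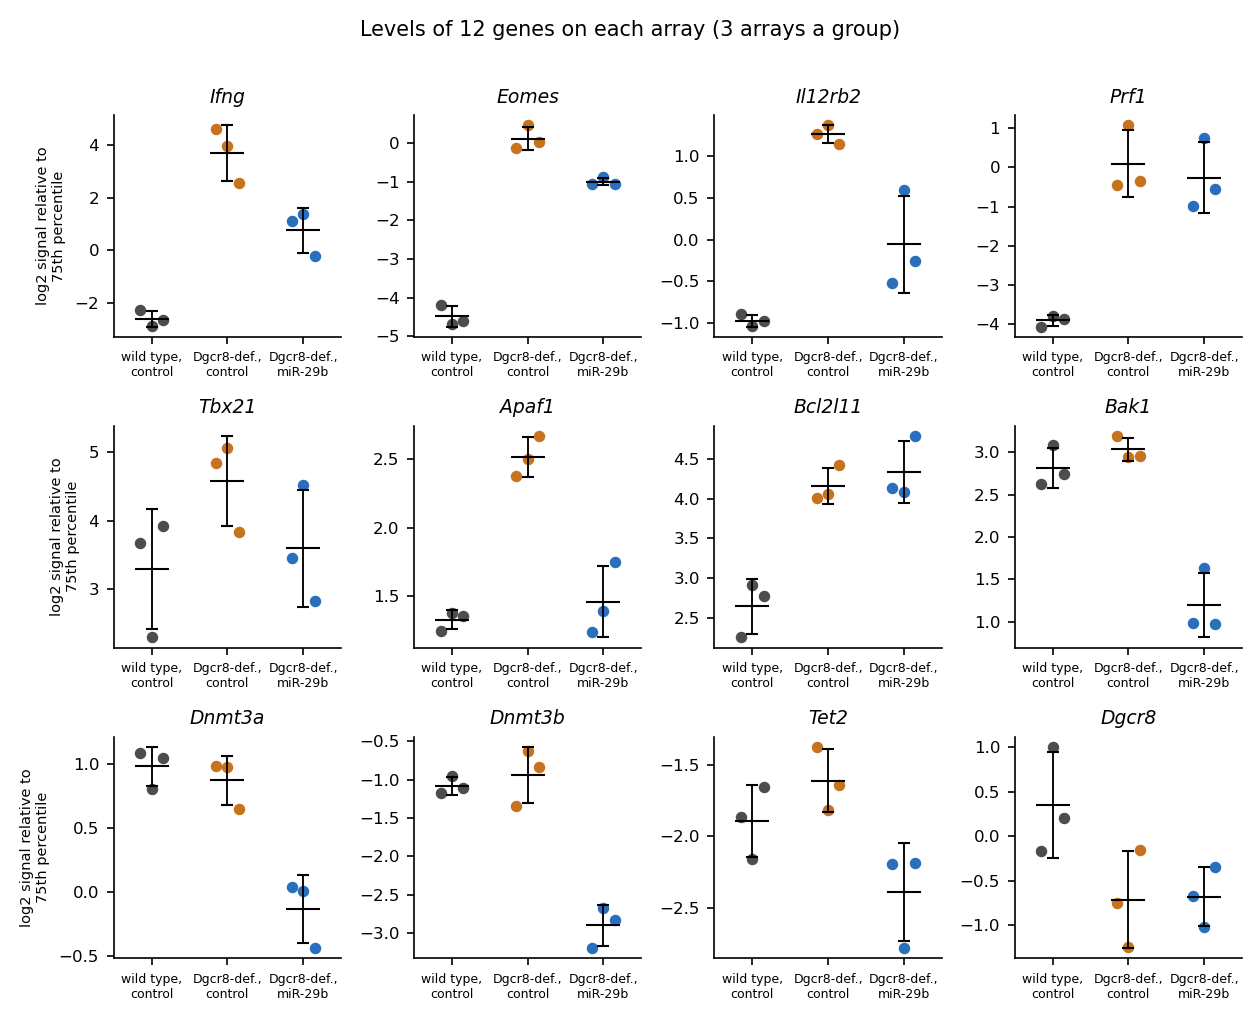
Points are single arrays, horizontal bars group means and whiskers SD (n = 3 arrays a group), in log2 signal above or below the array's 75th percentile, each panel on its own scale. Ifng, Eomes and Il12rb2 lie between the wild-type and control levels with miR-29b, and Prf1 and Bcl2l11 overlap the control arrays. Apaf1 is back at wild type, and Bak1, Dnmt3a and Dnmt3b are below wild type.

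Among the 31 genes of the Th1 and cytotoxic list, 14 were higher than wild type with miR-29b and 4 lower, against 15 and 2 with control. Over all genes, 11.2% were higher and 13.2% lower with miR-29b, and 9.23% and 12.6% with control. Between treatments 5 fell (1.19% over all genes). With the mouse as a block, 11 fell and 1 rose (9.39% and 13.1% over all genes). The median difference from wild type was 0.92 with miR-29b and 1.16 with control, while over all genes it was 0.04 and -0.08. Further members are named here after their values were seen. The chemokine genes Ccl3 (4.18) and Ccl4 (2.56) and the transcription factors Hlx (3.07) and Zeb2 (2.89) stayed at distances near those of the control cells (4.36, 2.74, 3.48 and 2.71). The receptor genes did not move as 1 group: of 9, 4 were higher and 4 lower. Il18r1, the binding chain of the IL-18 receptor, was higher by 1.95, but Il18rap, its partner chain, was below wild type by -1.61 (adjusted p = 0.0022) with a control distance of 0.21. Gzmm, a granzyme gene that is not on the list, came to within 0.43 ± 0.32 of wild type (adjusted p = 0.408) from a control distance of 2.24, with 81.0% closed (53 to 116.0%) and a called change (-1.81, adjusted p = 0.0214). It read -2.68, -3.35 and -2.83 in wild-type cells and -2.46, -2.08 and -3.04 with miR-29b, which overlapped. Of 8 NK cell markers, 3 were higher with miR-29b (Klra7 by 3.24, Tyrobp by 3.03 and Cd244a by 1.91) and 1 lower (Fcgr3, -2.73), with a median of 1.46. The count lower is near the 13.2% over all genes. The summed level of the NK cell markers, in which bright probes weigh most, was 0.431 to 1.24 with miR-29b and 0.621 to 1.23 in wild-type cells. Of 5 CD8 T cell markers none was higher and 1 was lower (Klrd1, -2.99), with a median of 0.64 and 4 of 5 values above 0. The lower call is that of Klrd1 alone. Cd8a was not called, and its probes gave 0.63, 0.96 and 0.66. The sum of the CD8 list was 0.808 to 1.43 with miR-29b against 1.67 to 3.19 in wild-type cells. The part of these markers in the cytotoxic genes was not tested.

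Genes induced by interferons stayed well above wild type as a list. Of 41 tested, 27 were higher with miR-29b and 1 lower, against 30 and 0 with control, and the median was 1.55 against 1.71. The shares over all genes were 11.2% higher and 13.2% lower with miR-29b, and 9.23% and 12.6% with control. In the change between treatments none of the 41 was called. With the mouse as a block, 11 fell and 1 rose (9.39% and 13.1% over all genes). All 8 guanylate-binding and immunity-related GTPases, which attack the membranes around intracellular microbes, were higher, with a median of 2.60 (3.21 with control). Gbp2 read 3.01, 3.22 and 3.08 in wild-type cells, 7.59, 7.73 and 7.57 with control and 7.07, 8.05 and 7.51 with miR-29b. It stayed 21.7-fold above wild type (4.44 ± 0.22, adjusted p = 3.75e-06), with 1.9% of the distance closed (-9.6 to 12.2%). Iigp1, another of these GTPases, read 1.04, 0.90 and 0.96 in wild-type cells, 6.32, 6.22 and 6.70 with control and 5.18, 5.60 and 5.57 with miR-29b. Here the miR-29b arrays lay below every control array, at 22.4-fold above wild type and 17.7% closed (9.0 to 25.8%). The change in Iigp1 (-0.96) was called only once mice were blocked (adjusted p = 0.0142, and 0.0563 without).

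Usp18, the protease that removes ISG15 from proteins, showed the largest called rise of all genes well above background on the 6 arrays. It read -4.58, -5.15 and -4.45 in wild-type cells, 2.63, 2.35 and 1.67 with control and 2.41, 2.72 and 1.61 with miR-29b, and -0.4% of the distance was closed (-13.4 to 11.1%). Irf1, an interferon-induced transcription factor, stayed higher by 1.55 (1.77 with control). Of 14 antiviral effectors, 6 were higher with miR-29b and Ifit2 was the 1 that was lower (-1.62, adjusted p = 0.002). With control 9 of them were higher and none lower. The shares over all genes were 11.2% and 13.2% with miR-29b, and 9.23% and 12.6% with control. Oasl2 was not well above background on any wild-type array and was at least 20.3-fold higher with miR-29b. Among 8 genes of antigen processing 3 were higher with miR-29b and 3 with control. Ido1, an interferon-induced enzyme that breaks down tryptophan, went from a control distance of 6.69 to 5.29, with 21.0% closed (9.3 to 31.7%). The Ido1 change of -1.40 was called once mice were blocked (adjusted p = 0.0317) and not without (0.0873).

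The promoters of these genes were searched for GAAANNGAAA on either strand, a core of the interferon-stimulated response element, in 250 bases before to 50 after each start from RefSeq on GRCm38.p6. The match was found in 7.09% of the promoters of genes higher with miR-29b (93 of 1312), 2.89% of those lower (46 of 1590), 3.68% of those not called and 3.99% of all 27025 promoters in the table. In the interferon-stimulated list it was in 11 of the 19 promoters of genes that were higher, and without that list the share among higher genes was 6.34%. Each GTPase below holds a match, shown in capitals in 30 bases of the gene's strand, where the match on the opposite strand reads as TTTCNNTTTC.
Gbp2 at chr3:142620594-142620623, 59 bases before the start: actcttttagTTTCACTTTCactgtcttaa
Gbp5 at chr3:142496759-142496788, 165 bases before the start: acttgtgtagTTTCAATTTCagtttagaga
Gbp3 at chr3:142559989-142560018, 45 bases before the start: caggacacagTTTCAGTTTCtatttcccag
Igtp at chr11:58199512-58199541, 34 bases before the start: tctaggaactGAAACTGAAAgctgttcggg
With miR-29b these 4 genes differed from wild type by 4.44, 3.77, 2.72 and 1.82, and with control by 4.52, 3.94, 3.14 and 1.71. A match is a description of the sequence and shows no binding.

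Of 51 genes reported as direct miR-29 targets, 6 were higher than wild type with miR-29b and 8 lower, against shares of 11.2% and 13.2% over all genes, so these counts are near the background. With control 8 were higher and 4 lower, against 9.23% and 12.6%, and the median was 0.25 with miR-29b and 0.26 with control. In the direct comparison of treatments, 8 of the 51 fell and none rose, where 1.19% of all genes fell and 1.01% rose: Ifng, Eomes, Dnmt3a, Dnmt3b, Fbn1, Bak1, Apaf1 and Narf. Once mice were blocked, 20 of the 51 fell and 2 rose. Where the 8 ended relative to wild type differed. Apaf1 reached it, Ifng and Eomes stayed above it, Fbn1 stayed at least 2.72-fold above a wild-type level that was not well above background, and Dnmt3a, Dnmt3b, Bak1 and Narf lay below it.

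Dnmt3a and Dnmt3b were near their wild-type level with control and below it with miR-29b. Of the 6 genes tested that place or maintain DNA methylation, 3 were lower with miR-29b and 1 with control, and none was higher. Over all genes, 13.2% were lower and 11.2% higher with miR-29b, and 12.6% and 9.23% with control. The 1 of 6 with control is near that share. Dnmt3b, which with Dnmt3a places new methyl groups on DNA, read -1.18, -0.96 and -1.12 in wild-type cells, -1.35, -0.63 and -0.84 with control and -3.20, -2.67 and -2.83 with miR-29b. No miR-29b array overlapped either other group, and the level was 3.52-fold below wild type (-1.81 ± 0.21, adjusted p = 0.000201), with a control distance of 0.14. Dnmt3a read 1.09, 0.80 and 1.05 in wild-type cells, 0.98, 0.98 and 0.65 with control and 0.04, 0.01 and -0.44 with miR-29b (-1.11 ± 0.19, adjusted p = 0.00179, with a control distance of -0.11). 3 probes of Dnmt3a gave -1.11, -1.16 and -0.70. Uhrf1, which brings the maintenance methyltransferase to replicated DNA, was below wild type in both treatments (-1.24 with miR-29b and -1.09 with control).

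Genes listed for the removal of methyl groups gave mixed values. Of 7 tested, 2 were higher and 1 lower with miR-29b (11.2% and 13.2% over all genes), with a median of 0.87. With control 1 was higher and 1 lower (9.23% and 12.6% over all genes), with a median of 0.38. Tdg, which excises oxidised methylcytosine, was lower by -1.59 (adjusted p = 0.018) from a control distance of 0.24. Its change between treatments, -1.83, was called once mice were blocked (adjusted p = 0.002) and not without (0.053). Tet2 differed from wild type by -0.49 ± 0.21 and was not called (adjusted p = 0.127), although its groups did not overlap. Narf, a reported miR-29 target of less settled function, was already below wild type with control (-0.76, adjusted p = 0.00771) and was lower still with miR-29b (-2.15, adjusted p = 2.33e-05).

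Of 26 apoptosis regulators, 5 were higher and 3 lower with miR-29b, and 5 and 1 with control, against shares over all genes of 11.2% and 13.2%, and 9.23% and 12.6%. Apaf1, the scaffold of the apoptosome, returned: it read 1.25, 1.38 and 1.35 in wild-type cells, 2.38, 2.5 and 2.67 with control and 1.24, 1.39 and 1.75 with miR-29b. The miR-29b and wild-type arrays overlapped, their difference of 0.13 ± 0.17 was not called (adjusted p = 0.649), and 88.8% of the distance was closed (61.2 to 125.1%). Bak1, which permeabilises mitochondria, was near wild type with control (0.21) and below it with miR-29b: 0.98, 1.64 and 0.97 against 2.63, 3.08 and 2.75 in wild-type cells (-1.62 ± 0.21, adjusted p = 0.000379). Its second, dimmer probe gave 0.06, so the 2 probes disagree. Bcl2l11, which encodes Bim, kept its distance, at 4.13, 4.08 and 4.79 against 2.25, 2.91 and 2.77 in wild-type cells (1.69 ± 0.27, adjusted p = 0.0014). The control distance of Bcl2l11 was 1.52, -11.5% was closed (-70.3 to 24.4%), and its dimmer probe gave 0.56.

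Genes reported as targets of other T cell microRNAs, which were not given back, kept much the same distance as a list. Of 73 tested, 25 were higher and 4 lower with miR-29b, 22 and 3 with control, and both medians were 0.43. Over all genes, 11.2% were higher and 13.2% lower with miR-29b, and 9.23% and 12.6% with control. Between treatments 3 of the 73 rose and 1 fell (1.01% and 1.19% over all genes). With the mouse as a block 14 rose and 8 fell (13.1% and 9.39%). Among targets of the miR-17~92 cluster, whose miR-17-5p and miR-20a-5p seed is shown above, 6 of 14 were higher and none lower. They include Bcl2l11 and Zbtb4, a methyl-DNA-binding repressor, which went up with miR-29b from a control distance of 0.96 to 1.86 (change 0.89, adjusted p = 0.0303). For let-7, 5 of 12 were higher and 1 lower, for miR-142 3 of 6 and 1, for miR-146a 3 of 5 and 0, and for miR-155 2 of 12 and 0. Maf, a factor of Th2 and follicular helper cells and a reported miR-155 target, read -0.16, -0.19 and 0.66 in wild-type cells and 2.76, 3.31 and 3.28 with miR-29b. It stayed 8.05-fold higher (3.01 ± 0.26, adjusted p = 4.76e-05), with 15.2% closed (-1.4 to 29.8%).

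The list with the largest distance from wild type was that of B lineage markers. Of 11 tested, 10 were higher with miR-29b and 10 with control, with medians of 4.08 and 3.74, and only Pax5, the factor that commits cells to the B lineage, was not called (-0.17). Ms4a1, which encodes CD20, read -4.50, -5.88 and -4.17 in wild-type cells, 1.08, 0.27 and 1.69 with control and 1.90, 0.45 and 1.92 with miR-29b. Every Dgcr8-deficient array lay above every wild-type array, the miR-29b group by 77.5-fold (6.28 ± 0.56, adjusted p = 5.31e-05), and -7.0% of the distance was closed (-32.5 to 13%). Cd74, the invariant chain of MHC class II, was higher by 5.16 ± 0.34 and H2-Aa, an MHC class II chain, by 5.56. Blnk, an adaptor of the B cell receptor (6.24), Jchain (6.90) and Mzb1 (5.37), both of antibody-secreting cells, were higher with control by 6.24, 7.91 and 5.65. The change of Jchain between treatments, -1.01, was called once mice were blocked (adjusted p = 0.0261) and not without (0.641). The summed level of the B list was 1.31 to 2.04 times the 75th percentile on the wild-type arrays, 18.91 to 32.8 with control and 25.7 to 33.3 with miR-29b. The CD4 and T cell receptor list, on its own scale, summed to 809 to 975 in wild-type cells, 740 to 770 with control and 960 to 1076 with miR-29b. Of 12 myeloid and dendritic cell markers, 3 were higher with miR-29b (Lyz1 by 2.49, Itgax by 2.68 and Fcer1g by 1.27) and 2 lower (Ccr2, -4.18, and Adgre1, -1.65), with a median of 0.23. The shares over all genes were 11.2% higher and 13.2% lower, so the count lower is near that share. The call of Lyz1 was lost in 2 of 22 other settings and that of Itgax in 1. The sum of the myeloid and dendritic list was 6.13 to 10.1 with miR-29b and 12.8 to 18.2 in wild-type cells. The part of other cells in any of the differences was not tested.

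**Figure D3:**
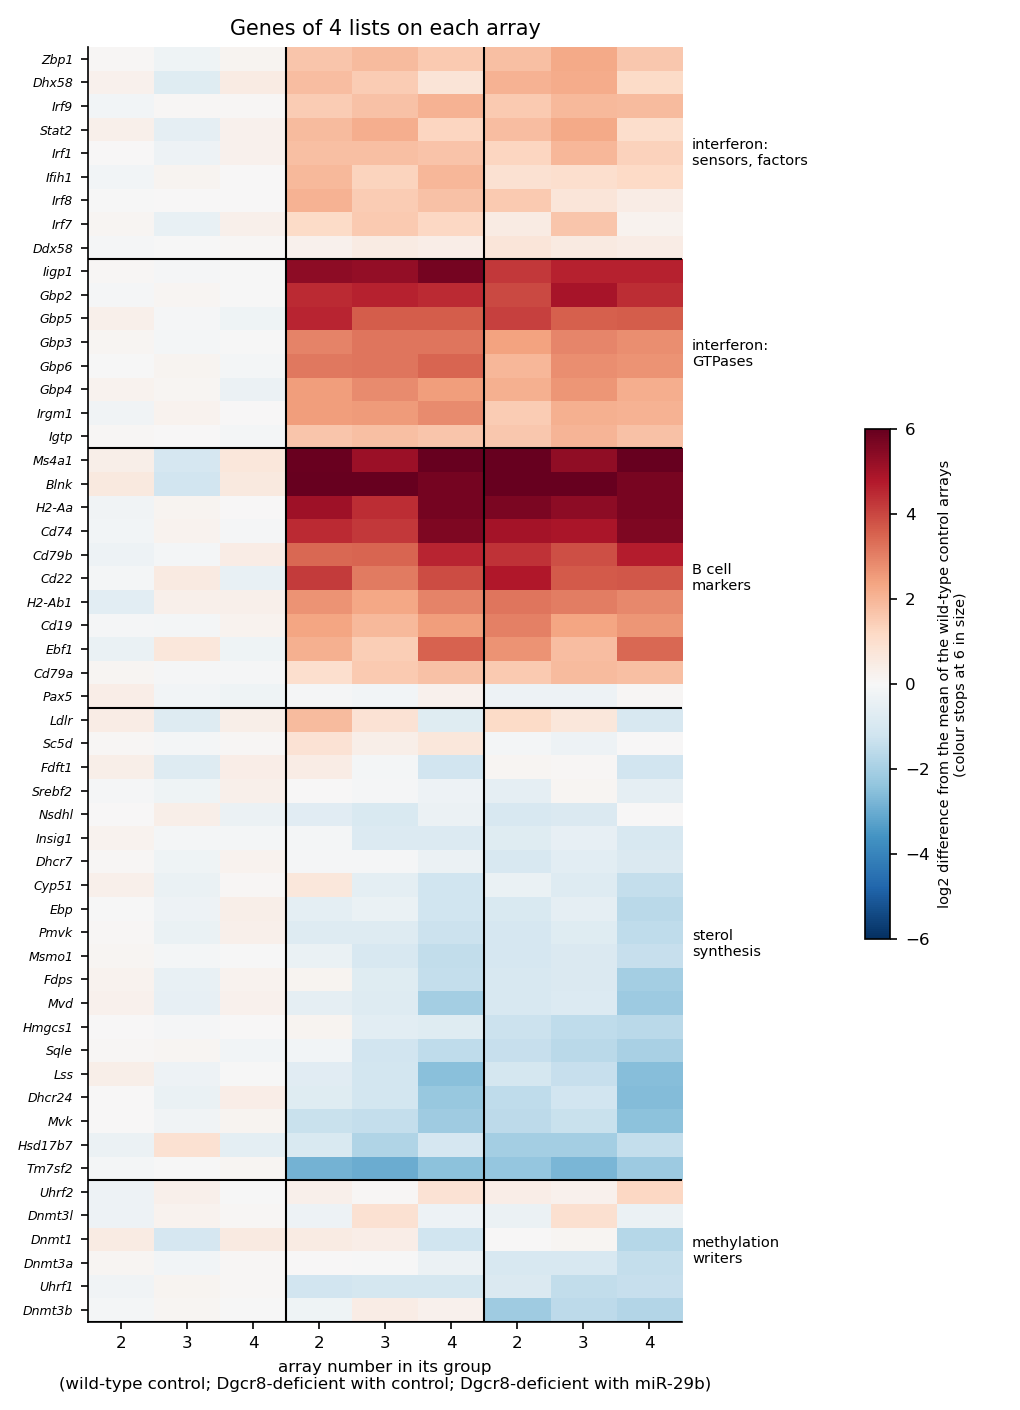
Each cell is 1 gene on 1 array, coloured by its log2 difference from the mean of the 3 wild-type control arrays, with columns in 3 blocks of 3 arrays: wild-type control, Dgcr8-deficient with control, Dgcr8-deficient with miR-29b. Interferon-induced GTPases and B cell markers other than Pax5 stay high in both Dgcr8-deficient blocks, while Hmgcs1, Dnmt3a and Dnmt3b are low mainly in the miR-29b block.

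The 8 genes furthest below wild type with miR-29b, among those well above background on the 6 arrays, were all called lower with control too. Adh1, an alcohol and retinol dehydrogenase, read 0.29, 0.62 and 0.50 in wild-type cells and -5.67, -4.51 and -5.55 with miR-29b, a 52.5-fold lower level (-5.72 ± 0.50) with 19.8% of the distance closed (4.6 to 33.5%). The Adh1 change of 1.41 was called once mice were blocked (adjusted p = 0.0377) and not without (0.21). Ccr2, the receptor for the chemokine CCL2, was lower by -4.18 and had a control distance of -3.41. Mctp1 was not well above background on any miR-29b array and was at least 36.1-fold lower. On the other side, Apol7c, Ubd, which encodes a ubiquitin-like protein induced by interferon gamma, Rab6b and Slfn4 were not well above background on any wild-type array and were at least 260.5, 70.7, 51.9 and 31.3-fold higher.

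Some genes were more distant with miR-29b than with control. Mlf1 read 0.91, -0.05 and 0.97 in wild-type cells, -1.61, -1.43 and -1.97 with control and -3.42, -3.12 and -4.22 with miR-29b. The 3 groups did not overlap, and -84.0% of the distance was closed (-177.7 to -36.8%), with a called change of -1.91 (adjusted p = 0.0375). Ddit3, the stress-induced factor CHOP, was higher by 2.06 with miR-29b and 1.2 with control (change 0.86, adjusted p = 0.0437). Ccr7, the receptor that brings T cells into lymph nodes, was higher by 2.19 and 1.35, but its change was called only once mice were blocked (adjusted p = 0.0134, and 0.171 without).

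Other genes reached wild type. Gcnt2, a glycosyltransferase that branches surface sugars, read -6.17, -4.58 and -5.03 in wild-type cells, -3.20, -2.99 and -3.50 with control and -5.25, -4.93 and -5.70 with miR-29b, so the miR-29b and wild-type arrays overlapped. The percent closed was 101.6% (61.6 to 169.0%), and the change of -2.06 was called (adjusted p = 0.0352). Pogk closed 81.8% (50.8 to 122.1%) and Nyap1, which was low with control, 105.3% (63.3 to 180.1%), both with called changes. Tdrp and Cebpd had values in the same range (80.1% and 88.5%), but their changes were not called without the mouse block (adjusted p = 0.202 and 0.214). Dcakd went past wild type: it was above it with control (1.04) and below it with miR-29b (-1.13 ± 0.29, adjusted p = 0.0159), at 209.5% (134.7 to 479.9%). This call was lost without miR-29b array 4 and without wild-type array 2 (adjusted p of at most 0.0619). Art4, an ADP-ribosyltransferase, went the other way, from -1.82 to 0.94, although its remaining difference (adjusted p = 0.0433) lost the call in 12 of 23 settings.

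**Figure D4:**
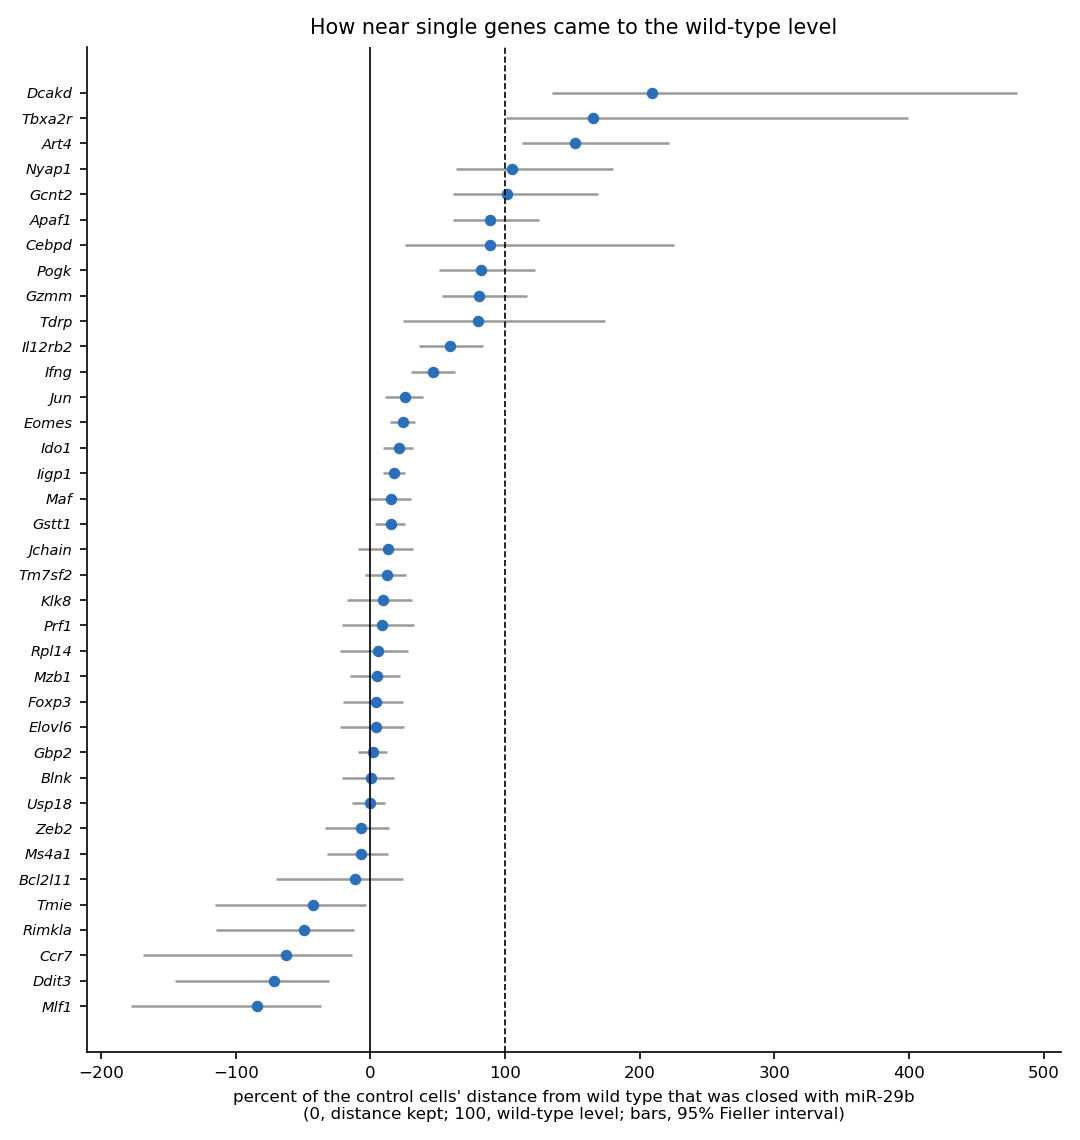
Points are the percent of the control cells' log2 distance from wild type that was closed with miR-29b, and bars the 95% Fieller intervals, for named genes at least 1 log2 unit from wild type with control. Ifng (46.6%) and Il12rb2 (59.0%) have intervals clear of both 0 and 100, the interval of Apaf1 (61.2 to 125.1%) holds 100, that of Gbp2 (-9.6 to 12.2%) holds 0, and that of Dcakd lies above 100.

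Several genes were near wild type with control and differed from it after miR-29b. Ifi30, a thiol reductase of antigen processing, read 2.22, 2.93 and 2.36 in wild-type cells, 2.74, 2.85 and 3.13 with control and 0.29, 0.60 and 0.21 with miR-29b (-2.14 ± 0.21, adjusted p = 8.97e-05). No miR-29b array overlapped the others, and the change of -2.54 was called (adjusted p = 0.00253). Ahrr, which represses signalling by the aryl hydrocarbon receptor, was lower by -2.36 ± 0.42 (adjusted p = 0.00239) from a control distance of 0.26. Cd93 was lower by -2.13 from 0.26, but its dimmer probe gave -0.35. Oit3 was higher instead: -1.04, -1.05 and -0.55 against -3.78, -3.63 and -3.47 in wild-type cells (2.75 ± 0.33, adjusted p = 0.000238), from a control distance of 0.05. These genes were chosen as the largest changes between treatments, so the size of those changes is a description.

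Genes of sterol synthesis were lower as a list, and by more with miR-29b than with control in median. Of 21 tested, 13 were lower and none higher with miR-29b (median -1.09), and 4 and 1 with control (median -0.67). Over all genes, 13.2% were lower and 11.2% higher with miR-29b, and 12.6% and 9.23% with control. Hmgcs1, which makes the precursor of mevalonate, read 3.60, 3.48 and 3.58 in wild-type cells, 3.73, 2.93 and 2.82 with control and 2.25, 2.05 and 1.94 with miR-29b. It was lower by -1.48 ± 0.24 (adjusted p = 0.00137) with a control distance of -0.39 that was not called, and its change was called (-1.08, adjusted p = 0.0449). Of the 21 genes, 5 fell between treatments once mice were blocked (9.39% over all genes) and 2 without the block (1.19%). Tm7sf2, a sterol reductase, was at -2.42 with miR-29b and -2.75 with control.

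Of 48 cell cycle genes, 11 were lower and 4 higher with miR-29b, against 4 and 5 with control. Over all genes, 13.2% were lower and 11.2% higher with miR-29b, and 12.6% and 9.23% with control. The 16 S phase genes had a median of -0.80 with miR-29b and -0.23 with control, and 6 of them were lower: Mcm4, Pcna, Rrm2, Tyms, Cdc6 and Cdt1, all with functions in DNA replication or nucleotide supply. The change between treatments was called for none of the 16 without the mouse block and was a fall for 8 with it (9.39% over all genes). Ccnd3, a G1 cyclin, stayed above wild type (1.46, and 1.96 with control). Among 30 cytokine receptor and signalling genes 11 were higher and none lower, against 7 and 0 with control. Between treatments 10 of the 30 rose with the mouse as a block (13.1% over all genes) and 1 without it (1.01%). Il6st, the shared gp130 chain of the IL-6 receptor family, read 0.88, 0.46 and 0.97 in wild-type cells, 1.45, 1.51 and 1.67 with control and 2.71, 2.28 and 2.48 with miR-29b, so that its distance went from 0.78 to 1.72 (change 0.95, adjusted p = 0.0365). Il2ra, which encodes CD25, was higher by 2.09 and 1.30 and Socs3, a feedback inhibitor of cytokine signalling, by 2.35 and 1.90, and the change of neither was called without the mouse block.

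**Figure D5:**
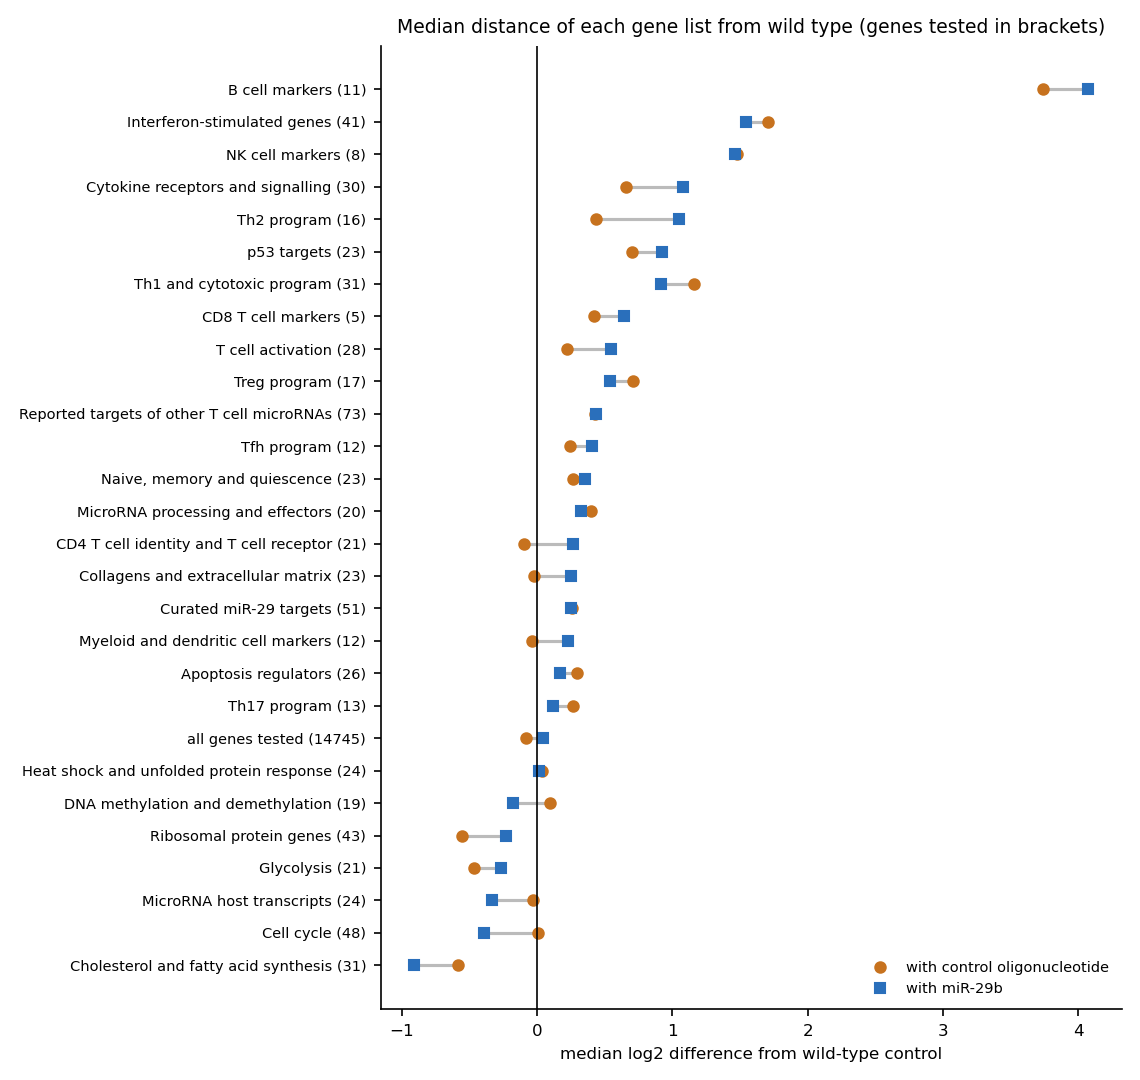
Each row is a gene list, with the median log2 difference from wild-type control over its tested genes, as a circle for Dgcr8-deficient cells with control and a square for those with miR-29b. The B cell list (3.74 and 4.08) and the interferon-stimulated list (1.71 and 1.55) lie far to the right in both, and the cholesterol and fatty acid list (-0.58 and -0.91) to the left. The sex-linked and the erythroid and platelet lists are not drawn. The median with miR-29b changed sign over the settings tried for the extracellular matrix, DNA methylation, heat shock, myeloid and Th17 lists.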

How the data were processed

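Cy3-labelled RNA was hybridised to 1-colour Agilent whole mouse genome arrays. The intensity values are the deposited processed signals of Agilent Feature Extraction 10.5.1.1, background-subtracted per spot per the file headers. The authors' deposited series table of log2 values, for which limma is named in the submitters' processing notes, was an alternative: its array medians were 6.95 to 6.96, and its correlation with the scanner values was 0.962 to 0.977, so it is a log2 scale, not centred on 0, and the same way round. How it was normalised is not given in the sources used here.

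Here, log2(signal) minus the 75th percentile of each array was taken, control and outlier spots were left out, and spots of a probe averaged. Of 41174 probes, 32308 were well above background on at least 3 of 12 arrays. 21140 of these had 1 gene symbol through their accession in RefSeq (GRCm38.p6) and 11168 had none. The brightest probe of each of 14745 genes was kept (4991 genes had more than 1). limma 3.58.1 in R 4.3.3 (lmFit, eBayes) fitted all 12 arrays as 4 groups, with Benjamini-Hochberg adjustment. On simulated arrays it recovered 14%, 79% and 94.5% of 200 genes changed by 1, 2 and 3 log2 units in the comparison of miR-29b with wild-type cells over 14745 genes. Only 200 genes were changed there, while 3603 were called in the data, so the adjusted cutoff was stricter in the simulation. These shares therefore do not carry over to the data, where 2204 of the 2911 genes at least 1 log2 unit from wild type were called. "At least" folds use the higher of a dim probe's signal and the lowest signal well above background on each array. The number of arrays, 3 a group, limits the precision. Percent closed is 100 × (1 - the miR-29b distance / the control distance), with a Fieller interval that takes arrays as independent. Replicate numbers name different mice in the 2 genotypes, and the residuals of same-numbered miR-29b and wild-type arrays correlated at 0.21, -0.395 and -0.314, so they were not paired. Those of the 2 treatments of a mouse correlated at 0.645, 0.611 and 0.744, and the mouse as a fixed block was added for that change after seeing the data. Both arrays of a mouse also shared a slide and scan day, so mouse and slide cannot be told apart in these pairs. Across genotypes on a shared slide, miR-29b array 4 and wild-type array 3 correlated at 0.543, and the arrays numbered 2 at 0.21.

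Named genes are 12 chosen genes (the Th1, apoptosis and methylation genes and Dgcr8), the largest 8 differences each way, the 4 largest bounds each way, up to 3 of each list by smallest p, the largest distances closed, kept, increased or passed, and the 6 largest changes each way. Other members were named after their values were seen. Some genes of the lists are not reported or drawn here. The comparison and all lists were chosen with earlier results of these data known. Normexp used median foreground signals, as the files used here hold no mean signals. Groups by seed match in UTRs were planned and not run, since no transcripts were used here.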

Additional observations from a re-analysis of the deposited data

How the results depend on the processing

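Counts of genes called with miR-29b against wild type lay between 2885 and 3917 under quantile normalisation, normexp, the authors' table, both filters, the mean of probes, 9 arrays and the mouse as a random block, without changing by over 1.5 times. They were 2248 with the 6 arrays compared, 6522 with the slide as a block (3603 called before, 3571 or more of them kept in each slide and scan fit), 6620 with the slide at random and 6256 with scan day, and 2618 to 3633 without 1 array. For control against wild type these were 6314, 6358 and 5847 with slide, slide at random and scan day, and 2325 to 3390 without 1 array. The label number as a replicate block, which pairs no mice, gave 3631 calls with miR-29b (3384 shared) and 3244 with control. The median over all genes moved from 0.04 to -0.08 with quantile normalisation and -0.10 with normexp. The median percent closed was 9.87 to 12.8 over the settings that keep all arrays and 8.67 to 18 without 1 array, the highest without the control array of mouse 3. Of the named genes, 29 changes between treatments were called, and 60 with the mouse block. 82 of the called named genes kept their call in every setting. The reversals all lay in genes near wild type or Y-linked, and the cause was not tested. Nyap1 gave -0.037 (quantile), -0.020 (normexp), -0.042 (authors' table) and -0.22 to 0.31 without 1 array. Adipoq gave -0.31 (quantile), -0.11 (normexp), -0.12 (authors' table), -0.12 (slide), -0.076 (slide at random) and -0.61 to 0.43 without 1 array. Pogk gave -0.090 (normexp) and -0.034 (authors' table). Gcnt2 gave 0.10 with the mean of probes and -0.49 to 0.31 without 1 array. Cebpd gave -0.11 (slide), -0.023 (slide at random) and -0.55 to 0.60 without 1 array. Eif2s3y gave 0.30 (slide) and Ddx3y 1.09 (slide) and 0.16 (slide at random), and without 1 array they gave -5.30 to 0.20 and -4.17 to 1.06. Tbx21 gave -0.20 to 0.69 and Apaf1 -0.012 to 0.24 without 1 array. Without mouse 3, Tbx21 was -0.16, Eif2s3y 0.20, Ddx3y 1.06, Cebpd -0.55 and Adipoq -0.61.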

Other observations

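Targets of p53 stayed above wild type: of 23 tested, 13 were higher and 1 lower with miR-29b, and 8 and 2 with control, with medians of 0.92 and 0.70. Pmaip1, which encodes the BH3-only protein Noxa, was higher by 2.17 with miR-29b and 2.35 with control, and Polk, a translesion polymerase, by 1.35 and 0.98. The stress genes Atf3 (4.20 and 4.32) and Sesn2 (1.32 and 0.78) were higher in both treatments, while the list of 24 heat shock and unfolded protein response genes had 5 higher and 2 lower. Of 43 ribosomal protein genes 8 were lower and none higher (13.2% and 11.2% over all genes), and 11 and 0 with control, with medians of -0.23 and -0.56. Between treatments 8 of them rose with the mouse as a block (13.1% over all genes) and 0 without it. Rpl14 was lowest of those named, at 2.83, 2.66 and 3.00 in wild-type cells and 1.25, 1.47 and 1.01 with miR-29b. Of 21 glycolytic genes 2 were higher and 3 lower, near the shares over all genes (11.2% and 13.2%), among them the glucose transporter Slc2a3 (-2.54, and -2.25 with control).

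Lists of other helper fates held calls each with miR-29b, where 11.2% of all genes were higher and 13.2% lower. Of 17 regulatory T cell genes 4 were higher and 2 lower (median 0.54), of 16 Th2 genes 4 and 0, of 13 Th17 genes 4 and 2, and of 12 follicular helper genes 4 and 1. With control these counts were 2 and 3, 4 and 2, 4 and 1, and 2 and 1, against 9.23% and 12.6% of all genes. In the regulatory list, Il2ra (2.09) and the receptor gene Tnfrsf18 were higher and Foxp3 was lower. Foxp3, the factor of regulatory T cells, read -2.0, -2.22 and -1.83 in wild-type cells, -3.72, -3.82 and -3.66 with control and -3.65, -3.62 and -3.70 with miR-29b, so its lower level (-1.64 ± 0.17, adjusted p = 0.000113) was kept, with 4.4% closed (-20.2 to 24.4%). Il4, the Th2 cytokine, was higher by 1.73 with miR-29b and 0.96 with control. Il21, the cytokine of follicular helper cells, was not well above background on any wild-type array and was at least 10.9-fold higher with miR-29b. Tsc22d3, a glucocorticoid-induced regulator, was higher by 2.0 with miR-29b and 2.01 with control. Of the factors that make or use microRNAs, 4 of 20 were higher and none lower, among them Tarbp2, a Dicer partner (1.57 and 1.31).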
